A study of Mus musculus with 5 samples.

Results

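The genes described here encode heat shock proteins and their DnaJ partners, many of them cytosolic, nuclear or mitochondrial. They were taken by symbol, as all genes beginning with Hspa, Hspb, Hspd, Hspe, Hsph, Hsp90, Dnaja, Dnajb or Dnajc, apart from 6 that encode chaperones of the endoplasmic reticulum (Hspa5, Hsp90b1, Hspa13, Dnajb9, Dnajb11 and Dnajc3). This gave 68 of the 27998 genes counted, of which 26 were Hsp genes, 4 Dnaja, 11 Dnajb and 27 Dnajc genes. Some DnaJ genes of the endoplasmic reticulum, such as Dnajc1 and Dnajc18, remained among them. Not every product is a chaperone: Hspb11 encodes a subunit of the intraflagellar transport machinery, and Hspbp1 and Hspbap1 encode proteins that bind heat shock proteins.

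The series holds droplet single-cell RNA libraries (10x Genomics) from kidneys of C57BL/6j mice in which pristane, a hydrocarbon oil, had induced lupus-like disease. All 5 mice carried this disease, so there was no healthy control. Mice given saline (n = 2) were compared with mice that received faecal microbiota from MRL/MpJ donors by transplant (FMT, n = 3), and the series title names microbial inosine and B cell differentiation. The sources used here give no age, sex or time of the transplant. Sample titles began with C or D in saline mice and with B in FMT mice, so whatever these letters stand for cannot be told apart from the treatment.

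Molecules were counted as unique molecular identifiers (UMIs), 15333445 to 45309178 per library, and 21708 cells in 28 clusters were used. Clusters were grouped into 7 lineages by a gate gene each, giving 2535 B cells (Ms4a1), 2798 T cells (Cd3e), 1332 monocytes and macrophages (Lyz2) and 426 neutrophils (S100a8). A cluster of 67 cells led by the macrophage genes C1qa, C1qb and C1qc stayed outside, at 13.1% of the highest cluster's Lyz2 level. Values given for monocytes and macrophages therefore do not cover these C1q-positive macrophages. The epithelial lineages were 11444 proximal tubule cells (Miox), 895 distal tubule cells (Slc12a3) and 724 intercalated cells (Atp6v1g3). Each gate gene was higher in its own lineage in every library than in any other lineage. Clusters were assigned by these same genes, so this is no separate check of the lineages. The margin was narrow for Lyz2, at 6519 UMIs per 1e6 UMIs of the lineage and library (CPM) or more in monocytes and macrophages and up to 6405 in neutrophils. The labels name tubular epithelial cells and B cells, and the other immune lineages were present as well. Proximal tubule RNA was present outside the proximal tubule: Miox reached 1773 CPM in the B cells of FMT mouse 2. Libraries shared between 2 and 8 cell barcodes per pair, and no pair had counts close enough to be a library deposited more than once. Chaperone genes were kept out of the genes used for clustering.

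Heat shock proteins bind unfolded proteins and keep them from aggregating. HSP70 proteins work in a cycle that J-domain proteins, the products of the Dnaj genes, start by delivering the client and stimulating ATP hydrolysis, and that HSP110 proteins such as Hsph1 and Hspa4 complete by exchanging the nucleotide. HSP90 proteins mature kinases and steroid receptors, small HSPs hold unfolded clients without ATP, and Hspd1 with its lid Hspe1 forms the folding chamber of mitochondria. Some of these genes are constitutive, and others are switched on by the factor HSF1 under heat or other protein stress.

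HSF1 binds heat shock elements, inverted repeats of GAA. RefSeq promoter sequences (GRCm38.p6, which is mm10) were matched by symbol for 55 of the 68 genes, and the 250 bases before each start were searched on both strands. Hspa8, Hspa9, Hsp90aa1 and Hsp90ab1 were among the genes without a match, so they were not searched. A run of 3 units, GAANNTTCNNGAA or TTCNNGAANNTTC, was present before 3 of the 55 genes, namely Dnajb6, Hspd1 and Hspe1, and before 0.514% of the 27025 genes in the table. A pair of units, GAANNTTC or TTCNNGAA, which each run of 3 also holds, was present before 14 of the 55 genes (25.5%) and before 14.5% of all genes. Hspd1 and Hspe1 lie head to head and share the same run. It is shown with its flanks, at chr1:55088053-55088082, plus strand, with the repeats in capitals, because both genes recur in the results on the proximal tubule.
Hspe1 and Hspd1 shared stretch: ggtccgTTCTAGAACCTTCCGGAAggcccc
The heat-inducible HSP70 genes Hspa1a and Hspa1b also lie close together, both on the minus strand of chromosome 17. The 250 bases before each start are shown because these genes differed widely between lineages and between mice. Capitals mark the GAANNTTC pair. The Hspa1a stretch is chr17:34972157-34972406 and the Hspa1b stretch is chr17:34959239-34959488.
Hspa1a upstream: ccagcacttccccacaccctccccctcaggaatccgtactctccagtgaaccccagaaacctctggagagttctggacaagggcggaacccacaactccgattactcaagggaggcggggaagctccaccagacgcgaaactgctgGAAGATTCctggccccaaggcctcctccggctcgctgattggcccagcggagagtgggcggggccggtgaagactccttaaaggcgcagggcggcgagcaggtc
Hspa1b upstream: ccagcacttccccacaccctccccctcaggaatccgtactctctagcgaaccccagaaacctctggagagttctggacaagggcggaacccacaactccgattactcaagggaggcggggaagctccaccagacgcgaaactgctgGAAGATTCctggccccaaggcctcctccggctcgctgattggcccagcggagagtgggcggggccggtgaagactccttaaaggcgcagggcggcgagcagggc
The stretches differed at 3 of 250 positions, counted from 1 at the 5′ end with the Hspa1a base first: C44T, T47C and T249G. The open reading frames were 99.6% identical over 1926 aligned bases, while the sequences after the stop codon were 66.3% identical over 578 aligned bases. Reads from the shared part may have been split between the genes, so the level of each alone is uncertain and both are given side by side.

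In the kidney as a whole, the most abundant members by UMI were Hspa8, the constitutive cytosolic HSP70, at 1288 ± 219 CPM (SD, n = 5 mice), Hspe1 at 929 ± 132 and Hsp90ab1, the constitutive HSP90, at 877 ± 83.6. Next came Dnajc19 (358 ± 57.7), a J-domain protein of the mitochondrial import motor, then Hspd1 (305 ± 40.5), Hsp90aa1 (284 ± 41.4), the mitochondrial HSP70 gene Hspa9 (280 ± 30.2) and Dnaja1 (258 ± 33.7). Dnajc12 (212 ± 41.2), Dnajc15 (182 ± 11.01), Dnaja2 (130 ± 13.4) and Dnajb6 (108 ± 6.42) completed the 12 highest. UMI counts are not scaled by gene length, so this order ranks counted molecules, not expression per length. All members together took 0.589% to 0.701% of a library's UMIs. No UMI was found for Dnajc5b, Dnajc5g, Dnajb8 or Hspb3, which at 3 counts over all 5 libraries allows a level of up to 0.0247 CPM, for counting error only. Another 5 members had UMIs but passed the low count filter in no lineage: the HSP70-like genes Hspa1l and Hspa12b, the small HSP genes Hspb8 and Hspb9, and Dnajb7.

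**Figure D1:**
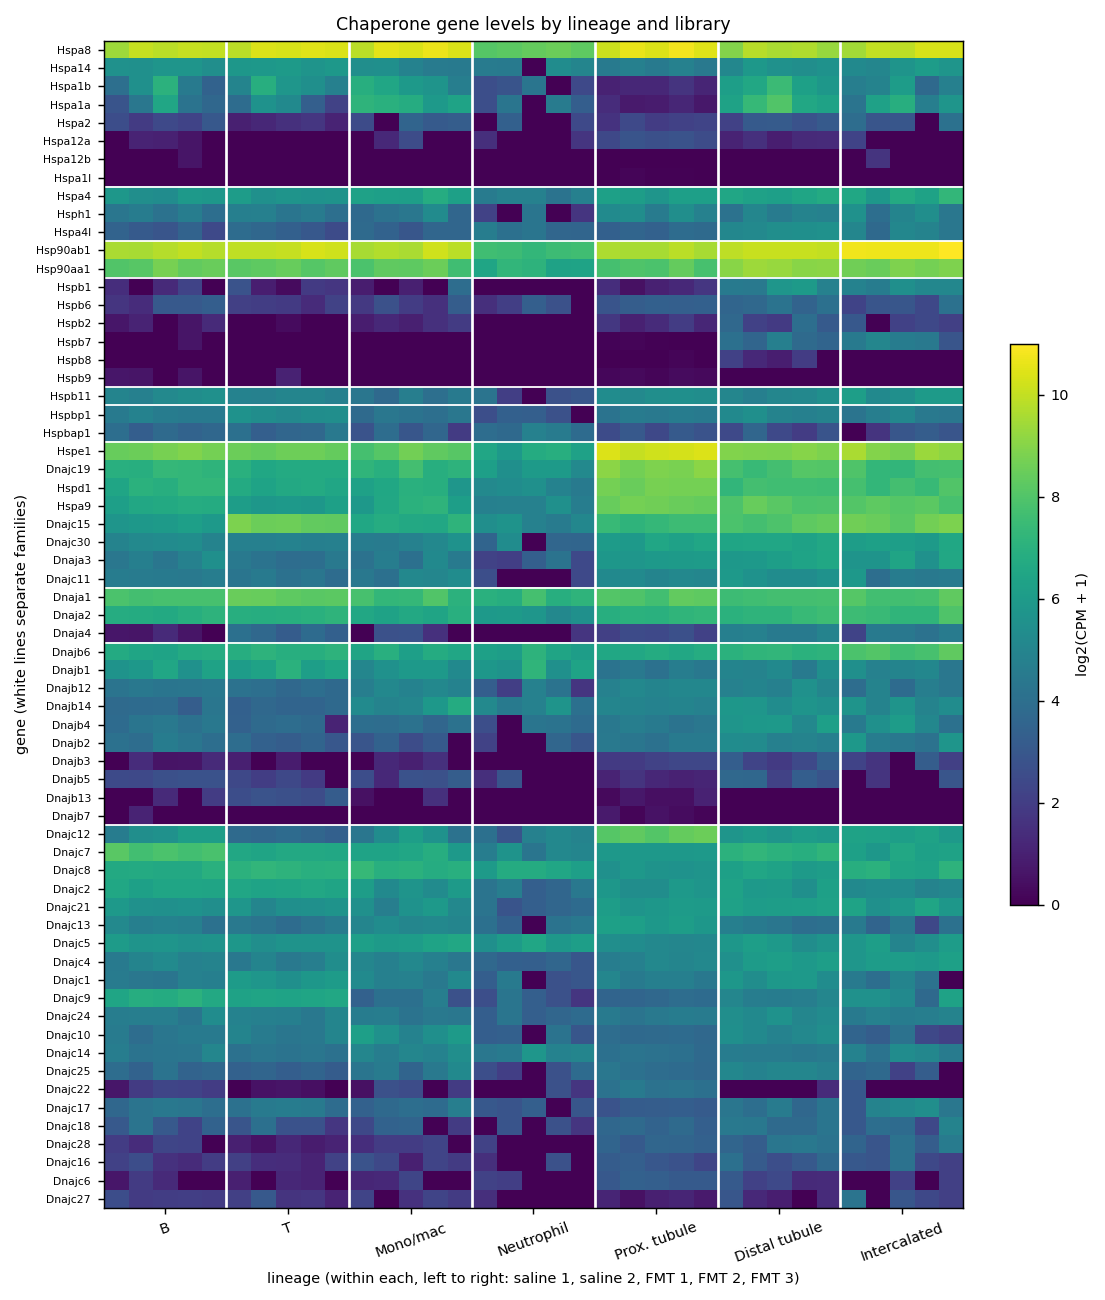
Levels of the 64 detected chaperone genes as log2(CPM + 1), by lineage and library, with genes grouped by family. Neutrophils are dark across nearly all families, Hspe1, Dnajc19, Hspd1, Hspa9 and Dnajc12 are brightest in the proximal tubule, and Hspa1a and Hspa1b are dark there.

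The lineages differed in the total and in the makeup of their chaperone RNA. Summed over the 68 genes, the proximal tubule held 7026 ± 422 CPM and intercalated cells 7096 ± 740 (SD, n = 5), whereas neutrophils held 1768 ± 157. T cells (5479 ± 176), monocytes and macrophages (4955 ± 514), B cells (4792 ± 417) and the distal tubule (6114 ± 366) lay between them. The lowest epithelial value, 5520 CPM in the distal tubule of saline mouse 1, lay above the highest value in neutrophils, 2015 CPM in FMT mouse 1. The 8 mitochondrial members summed to 2829 CPM in the proximal tubule and to 270 CPM in neutrophils.

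Each gene was then tested in each lineage against the mean of the other 6 lineages within the same mice. This used the edgeR quasi-likelihood F test over 10417 genes, of which 50 were members, with Benjamini-Hochberg adjustment at 0.05. Its log2 values are taken against the mean of the log levels of the other lineages, so they can be large where 1 lineage is near 0. In the proximal tubule 22 of 50 members were higher and 14 lower, while 39.2% of all genes were higher and 32.4% lower. In the distal tubule 26 members were higher and 10 lower (34.8% and 29.9% of all genes), and in intercalated cells 20 were higher and 9 lower (26.1% and 28%). In neutrophils 7 members were higher and 23 lower (24.8% and 26.1%). T cells had 21 higher and 15 lower (39.1% and 30.7%), monocytes and macrophages 12 and 13 (34.9% and 17.2%), and B cells 10 and 7 (33.3% and 22.3%). The median member differed by 0.36 in the distal tubule and by -0.92 in neutrophils, and the median of all genes by -0.01 and -0.26 in the same contrasts.

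The proximal tubule, a segment rich in mitochondria, was set apart by mitochondrial chaperones. Hspe1 (chr1:55088132-55091307, plus strand) was at 1387 and 1033 CPM in saline mice 1 and 2 and at 1178, 1236 and 1381 CPM in FMT mice 1 to 3. In intercalated cells, the next highest lineage, it was between 428 and 784 CPM, so the lineages did not overlap and the groups of mice did. Its log2 difference from the other lineages was 1.99 ± 0.09 (SE, edgeR adjusted p = 5.1e-21). Hspd1 (chr1:55077835-55088243, minus strand) was at 413 and 353 CPM in the saline mice and at 422, 419 and 412 CPM in the FMT mice, with a log2 difference of 1.94 ± 0.10. The stretch printed above lies upstream of Hspe1 and of the Hspd1 transcript that starts nearest to it, and inside the longer annotated span of Hspd1. Annotated exons of the genes overlap on opposite strands, so reads there cannot be told apart if strand was not used. The other mitochondrial genes that rose in this lineage were Dnajc19 (log2 1.88), Hspa9 (1.84), Dnaja3 (1.25), Dnajc30 (1.02) and Dnajc11 (0.89). Dnajc15, an inner membrane J-domain protein that slows respiration, was at a mean of 168 CPM and did not pass there (log2 0.23, edgeR adjusted p = 0.053).

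The gene with the steepest rise in the proximal tubule above 20 CPM was Dnajc12 (chr10:63382443-63410576), which encodes a J-domain partner of the amino acid hydroxylases. It was at 272 and 313 CPM in the saline mice and at 263, 336 and 370 CPM in the FMT mice. The distal tubule was at 51.5 to 67.3 CPM, and the log2 difference from the other lineages was 3.13 ± 0.12 (SE, edgeR adjusted p = 3.4e-23). Dnajc22, a little studied membrane J-domain gene, was lower in level, 15.7 to 21.8 CPM, and further from the other lineages, with log2 4.18 ± 0.25. Dnajc13, a J-domain protein of endosomes, was also higher (66.5 against a mean of 20.9 CPM), and highest in the proximal tubule in all 5 mice.

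**Figure D2:**
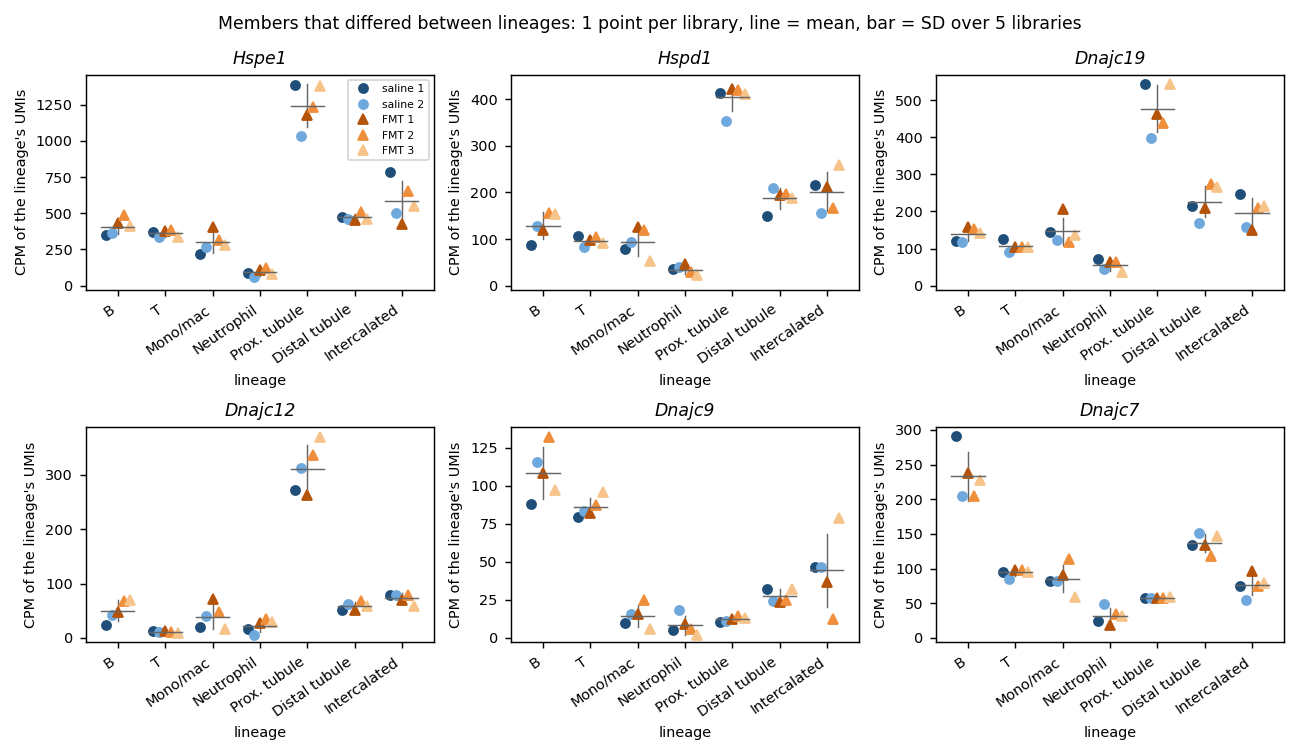
CPM of 6 chaperone genes by lineage, with 1 point per library (circles saline, triangles FMT), the mean as a line and the SD over 5 libraries as a bar. Hspe1, Hspd1, Dnajc19 and Dnajc12 are highest in the proximal tubule in every library, Dnajc9 in B and T cells and Dnajc7 in B cells.

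The heat-inducible HSP70 genes behaved in the opposite way. Hspa1a (chr17:34969190-34972156) was at 1.60, 0.718, 0.798, 1.30 and 0.638 CPM in the proximal tubule of saline mice 1 and 2 and FMT mice 1 to 3, from 6 to 24 UMIs per library. In the distal tubule it was at 78.9, 165, 255, 95.1 and 78.8 CPM in the same order, from 51 to 350 UMIs. In monocytes and macrophages it was at 143, 126, 111, 60.9 and 81.5 CPM. Its log2 difference was -5.36 ± 0.48 in the proximal tubule, 2.33 ± 0.26 in the distal tubule and 2.55 ± 0.28 in monocytes and macrophages (SE, edgeR adjusted p = 8.3e-13, 4.4e-10 and 4.0e-10). Hspa1b (chr17:34956436-34959238) followed it, with a mean of 1.42 CPM in the proximal tubule, 94.8 in the distal tubule and 68.4 in monocytes and macrophages. An RNA gene, Gm20481, overlaps Hspa1a on the opposite strand, and the sources used here do not say whether reads were counted by strand. Immediate early genes such as Fos and Egr1, known to respond when tissue is dissociated, were also low in the proximal tubule, where 16 of 16 passed as lower, with 317 to 453 CPM summed over the list, against 2444 to 8000 in the distal tubule and 6228 to 12010 in monocytes and macrophages. The lists did not move together in every lineage: in the distal tubule 8 of 16 immediate early genes were lower and 1 higher, and neutrophils had the highest sums, 10027 to 25335 CPM with 15 of 16 higher, but 0 to 6 UMIs of Hspa1a per library. Their part in the difference was not tested.

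Dnajb1, the J-domain partner that heat induces together with Hspa1a, fell in the proximal tubule too, at 16.3 to 24.6 CPM and log2 -1.33 ± 0.13. Its highest means were in T cells, at 86.5 ± 24.5 CPM (SD, n = 5), and in neutrophils, at 75.8 ± 41.4 CPM, and these overlapped. Not all inducible genes were low in the proximal tubule: Hsph1, the stress-induced HSP110 gene, was higher there (log2 1.06 ± 0.14) and Dnaja1 slightly so (0.38 ± 0.10), as were Hspe1 and Hspd1.

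**Figure D3:**
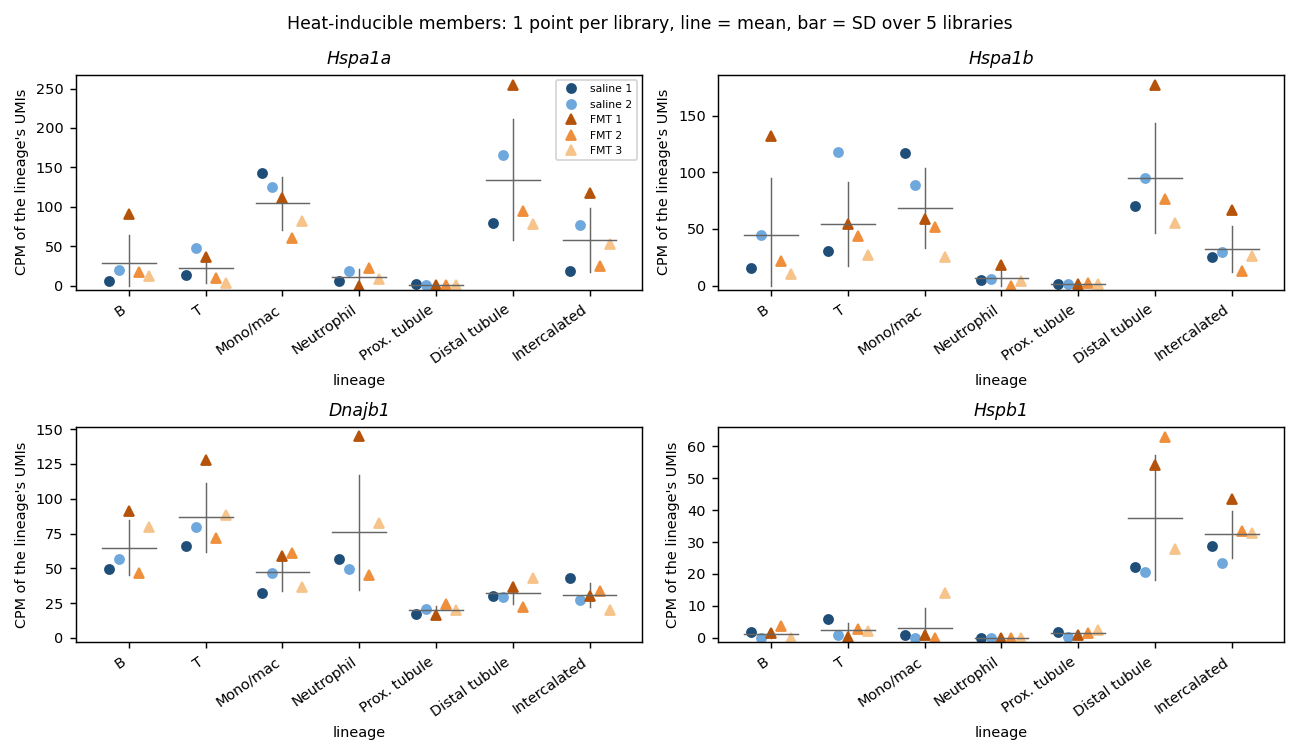
CPM of the heat-inducible genes Hspa1a, Hspa1b, Dnajb1 and Hspb1 by lineage, with 1 point per library (circles saline, triangles FMT), the mean as a line and the SD over 5 libraries as a bar. Hspa1a and Hspa1b lie near 1 CPM in the proximal tubule in every library, and FMT mouse 1 is the highest library for both in B cells, the distal tubule and intercalated cells.

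Among the 7 lineages, small HSP genes were highest in the distal nephron. Cells outside these lineages held more Hspb1, at means of 459.2 CPM in those led by S100a6 and Sprr1a and 332.5 CPM in those led by Kap and Cryab. Hspb1 (chr5:135887919-135889563), an inducible small HSP, was at 22.2 and 20.8 CPM in the distal tubule of the saline mice and at 54.2, 62.9 and 27.8 CPM in the FMT mice. Intercalated cells were at 28.7, 23.3, 43.5, 33.5 and 32.9 CPM, which overlapped with the distal tubule. In the proximal tubule the mean was 1.38 CPM, and no UMI was found in neutrophils. Hspb7 was detected almost only in these lineages, with 83 UMIs in the distal tubule and 35 in intercalated cells, against 3 in the proximal tubule, 1 in B cells and 0 in T cells, monocytes and macrophages, and neutrophils. Both passed the test as higher in both lineages. The distal tubule was also higher in Dnaja4 (25.3 ± 3.40 CPM, SD, n = 5), a sterol- and stress-regulated cofactor of HSP70, and in Hspa4l, Dnajb4 and Hsp90aa1. Hsp90aa1, the inducible HSP90, reached 531 to 676 CPM there, above every other lineage in all 5 mice. Hsp90ab1, Dnajb6 and Hspb11 were highest in intercalated cells in all 5 mice, with Hsp90ab1 at 1671 to 2402 CPM and a log2 difference of 0.96 ± 0.10 (SE, edgeR adjusted p = 5.5e-11).

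Dnajc9 was high in both lymphocyte lineages and Dnajc7 in B cells. Dnajc9 (chr14:20384638-20388910), a chaperone of histones H3 and H4, was at 87.7, 116, 108, 132 and 97.2 CPM in B cells of saline mice 1 and 2 and FMT mice 1 to 3, and at 79.8 to 96.1 CPM in T cells. B cells were the highest lineage in every mouse, although the ranges of the lineages overlapped. The log2 differences were 2.29 ± 0.13 and 1.96 ± 0.13 (SE, edgeR adjusted p = 1.5e-18 and 1.4e-16). Dnajc7 (chr11:100582818-100620168), which links HSP70 to HSP90, was at 205 to 291 CPM in B cells, against 118 to 151 CPM in the distal tubule, the next lineage (log2 1.70 ± 0.09 against all others). Dnajc15 was higher in T cells, at 316 to 450 CPM with log2 1.66 ± 0.10, and lower in B cells, at a mean of 61.0 CPM with log2 -1.44 ± 0.13. T cells were also higher in Dnajb1, Dnajc1, which has its J-domain in the endoplasmic reticulum, Hspbp1, a nucleotide exchange factor of HSP70, and Hspa14, a ribosome-bound HSP70. Hspa1b passed the test as higher in B cells (log2 0.96) and T cells (1.47). The call in B cells was lost without FMT mouse 1, the mouse at 132 CPM. Its mean in B cells, 44.8 CPM, was close to the 43.0 CPM of the other lineages. Both log2 values, in B and in T cells, are taken against the mean log level of the other lineages. The low levels of neutrophils, at 0 to 3 UMIs of Hspa1b per library, and of the proximal tubule enter that mean.

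Among myeloid cells, monocytes and macrophages were higher in Dnajc10, a disulfide reductase with a J-domain, at a mean of 50.8 CPM, above every other lineage in all 5 mice (log2 1.64 ± 0.16). Neutrophils were lower in Hspa8 (log2 -1.10), Hsp90ab1 (-1.77), Hspe1 (-1.82), Hspa9 (-1.71), Dnaja3 (-2.01), Hsph1 (-2.21) and 17 other members. The 7 members that were higher in them were Dnajb1 (1.47), Hspbap1 (1.70), Dnajc14 (1.01), Hspa4l (0.95), Dnajc5 (0.90), Dnajb14 (0.78) and Dnajc8 (0.49). Of these, Hspa4l, Dnajb14 and Dnajc8 had a lower mean CPM in neutrophils than over the other lineages, so their direction holds for the mean of log levels only. The calls of these 3 each rested on single libraries: that of Hspa4l was lost without saline mouse 1 or without saline mouse 2, that of Dnajb14 without saline mouse 1 or without FMT mouse 2, and that of Dnajc8 without saline mouse 2. Neutrophils numbered 39 to 129 cells per library.

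Other genes of the heat shock and chaperone systems, 59 in a list of heat shock factors, co-chaperones, chaperonin and prefoldin subunits, mitochondrial proteases and the endoplasmic reticulum chaperones left out above, gave 57 that could be tested between lineages. In neutrophils 5 were higher and 35 lower, where 24.8% and 26.1% of all genes were, and in intercalated cells 28 and 9 (26.1% and 28% of all genes). T cells had 27 and 18 (39.1% and 30.7%), the proximal tubule 24 and 11 (39.2% and 32.4%) and the distal tubule 23 and 11 (34.8% and 29.9%). B cells had 18 higher and 14 lower (33.3% and 22.3%), and monocytes and macrophages 12 and 20 (34.9% and 17.2%). Hsf1 was higher in B cells (23.8 ± 3.69 CPM) and T cells (26.5 ± 0.94) and in monocytes and macrophages (17.8 ± 4.12), lower in neutrophils (0.705 ± 1.58), and did not pass the test in the proximal tubule (12.3 ± 1.52 CPM, edgeR adjusted p = 0.71). Hsf2, a related factor, was higher in intercalated cells, at 62.4 ± 6.80 CPM with a log2 difference of 2.85 ± 0.21, together with the co-chaperone Bag3 (1.99 ± 0.31) and the small HSP gene Cryab (3.06 ± 0.34). Cryab was also higher in the distal tubule (1.81 ± 0.29).

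The question of the design is whether these genes differed between saline and FMT mice. UMIs were summed per mouse and lineage and tested over all genes of the lineage with the edgeR quasi-likelihood F test at an adjusted p of 0.05. No member passed in any lineage, over 287 tests on 59 members: 0 of 46 in B cells, 0 of 46 in T cells, 0 of 40 in monocytes and macrophages, 0 of 17 in neutrophils, 0 of 57 in the proximal tubule, 0 of 51 in the distal tubule and 0 of 30 in intercalated cells. The share of all genes called in the same order was 0%, 0.0215%, 0%, 0.602%, 0.0768%, 0.311% and 0%. DESeq2, run as an alternative, also called 0 members in each lineage, and 0.437%, 0.086%, 0.014%, 0.391%, 0.631%, 0.204% and 0.0233% of all genes. At an unadjusted p under 0.05 there were 3, 1, 3, 0, 5, 4 and 0 members, 16 in all, and 8.3%, 5.69%, 4.02%, 10.9%, 10.5%, 4.9% and 2.47% of all genes. The median member had a log2 change, FMT over saline, of 0.13 in B cells, 0.03 in T cells, 0.12 in monocytes and macrophages, -0.12 in neutrophils, 0.07 in the proximal tubule and 0.04 in both the distal tubule and intercalated cells. The medians of all genes lay between -0.01 and 0.04. The median SE of a member was between 0.17 in the proximal tubule and 0.34 in neutrophils, so changes of that order were not detectable in these 5 mice. Changes several times larger could also go uncalled, as did that of Hspb1 in the distal tubule (log2 1.23, edgeR adjusted p = 0.092). Nothing in these counts shows that the groups were alike. Values of single genes below are therefore descriptions. This also holds where the groups did not overlap: 2 against 3 mice can separate fully without a treatment effect. The share of all genes without overlap was not counted.

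**Figure D4:**
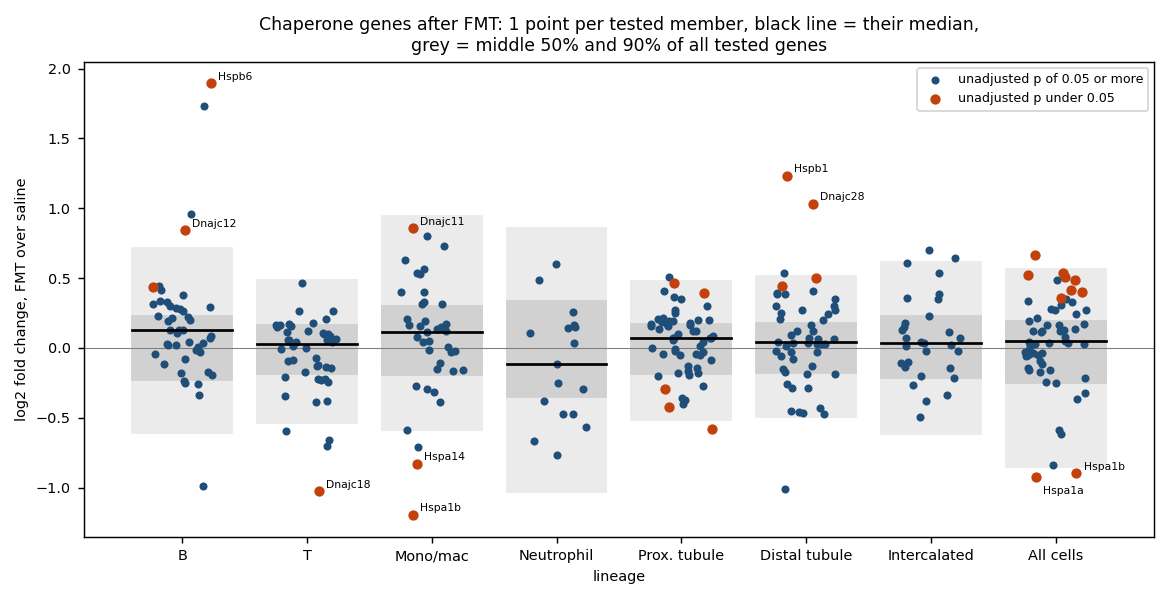
Log2 fold change, FMT over saline, of each tested chaperone gene by lineage and in all cells. Black lines are the members' medians, grey bands the middle 50% and 90% of all tested genes, and orange points have an unadjusted p under 0.05; none passed after adjustment.

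In B cells, the cells named in the title, 33 of 46 members had a positive log2 change, against 50.2% of all genes. Without B cells over 0.5% proximal tubule marker UMIs, a comparison added after the values were seen, 22 of 45 members were positive, against 50.04% of all genes, and the median member went from 0.13 to -0.002. Dnajc12 was at 23.8 and 42.7 CPM in the saline mice and at 46.8, 68.7 and 69.6 CPM in the FMT mice, with no overlap (log2 0.84 ± 0.29 SE, edgeR adjusted p = 0.53). Hspe1 was at 347 and 365 CPM in saline and at 430, 485 and 414 CPM in FMT mice (log2 0.29 ± 0.15). Both genes were highest in the proximal tubule, and summed proximal tubule markers in B cells were 985 and 3195 CPM in the saline mice and 3526, 3777 and 2780 CPM in the FMT mice. When the cells rich in these markers were left out, 2.87% to 13.3% of cells per library, Dnajc12 was at 19.1 and 8.503 CPM in saline and 13.2, 15.9 and 12.3 CPM in FMT mice, with a log2 change of -0.002 ± 0.35. The changes of Hspe1, Dnajc19 and Hspd1, 0.29, 0.32 and 0.38 with all B cells, were then -0.02, -0.02 and 0.01, and that of Hspa9 went from 0.33 to 0.14. Leaving out cells by these markers itself removes RNA of genes high in the proximal tubule. The part of such RNA in these changes was not tested. Hsp90aa1 kept its value: it was at 261 and 283 CPM in saline and at 432, 325 and 363 CPM in FMT mice, with log2 0.43 ± 0.17 (edgeR adjusted p = 0.57) and 0.43 without those cells. Hspb6, a small HSP gene, had the smallest p in B cells from few molecules, 4 and 3 UMIs in saline and 15, 14 and 6 in FMT mice. It shares exon sequence with Lin37 and Proser3 on the opposite strand.

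Hspa1a in B cells rested on 1 mouse. It was at 6.23 and 19.4 CPM in the saline mice and at 90.2, 17.3 and 11.6 CPM in the FMT mice, so FMT mouse 1 was high and the others overlapped. The log2 change of 1.73 ± 0.81 (SE, edgeR adjusted p = 0.63) was 0.22 without FMT mouse 1. In that mouse 183 UMIs came from 39 of 616 B cells, and 32 UMIs from 1 cell. Hspa1b in B cells was likewise highest in FMT mouse 1, at 132 CPM against 10.2 to 44.9 CPM in the other 4 mice. Dnajb1 in B cells was at 49.8 and 56.5 CPM in saline and at 91.2, 46.7 and 79.8 CPM in FMT mice (log2 0.41 ± 0.28). The immediate early genes summed to 6719 and 7554 CPM in the saline B cells and to 15104, 5284 and 14614 CPM in the FMT B cells, so the same FMT mice, 1 and 3, were high in both, and FMT mouse 2 was lowest in both. Whether the one has a part in the other was not tested. The other inducible members of B cells, Hsph1, Dnaja1 and Dnajb4, had log2 changes between -0.18 and 0.22, and the constitutive members Hspa8, Hspa9, Hsp90ab1, Hspa4, Dnaja2, Dnajc7 and Dnajb6 between -0.17 and 0.33.

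In T cells Dnajb1 was at 65.8 and 79.7 CPM in saline and at 128, 71.5 and 88.0 CPM in FMT mice (log2 0.46 ± 0.22, edgeR adjusted p = 0.89), again with FMT mouse 1 highest. Hspa1b was at 30.3 and 118 CPM in saline and at 54.0, 44.0 and 26.6 CPM in FMT mice. Its log2 change of -0.70 ± 0.40 (edgeR adjusted p = 0.91) passed with no low count filter (log2 -0.71, edgeR adjusted p = 0.024) but was 0.61 without saline mouse 2, so its direction rested on that mouse. Dnajc18, a J-domain gene of the endoplasmic reticulum membrane, was at 6.53 and 15.7 CPM in saline and at 5.88, 5.74 and 2.32 CPM in FMT mice, Hspa4l at 11.8 to 14.0 CPM in saline and 4.63 to 9.36 CPM in FMT mice, and Hsp90ab1 at 992 and 1000 CPM in saline and 1033, 1276 and 1177 CPM in FMT mice. The values of these genes did not overlap between groups, and the share of all genes for which this holds was not counted. Their log2 changes were -1.03, -0.66 and 0.27. Leaving out saline mouse 2 took Dnajc18 to -0.26, and leaving out the other saline mouse took it to -1.52.

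In monocytes and macrophages Hspa1b had the smallest p. It was at 117 and 89.0 CPM in saline and at 59.2, 51.3 and 25.3 CPM in FMT mice, without overlap, from 9 to 274 UMIs (log2 -1.20 ± 0.33 SE, edgeR adjusted p = 0.998). With no low count filter it passed (log2 -1.28, edgeR adjusted p = 0.034). Hspa1a was at 143 and 126 CPM in saline and at 111, 60.9 and 81.5 CPM in FMT mice (log2 -0.71 ± 0.31). Hspa14 was at 41.8 and 43.8 CPM in saline and at 28.1, 22.8 and 22.5 CPM in FMT mice (log2 -0.83 ± 0.29). Neither overlapped between the groups. Dnajc11, a protein of the mitochondrial cristae complex, was at 20.5 and 15.5 CPM in saline and at 34.0, 32.3 and 39.4 CPM in FMT mice (log2 0.86 ± 0.32), and Dnajb14 had a change of 0.80 ± 0.47. The immediate early genes gave 10504 and 6661 CPM in saline and 10934, 6228 and 12010 CPM in FMT mice, without the order of Hspa1b. This lineage joined 2 clusters whose mix moved with the mice: cells of cluster 19 (Lyz2, S100a4, Chil3, Ly6c2) were 16 of 766 and 22 of 142 in saline and 23 of 206, 49 of 152 and 30 of 66 in FMT mice, and the others were of cluster 8 (Lyz2, Tyrobp, Fcer1g, Lst1). Hspa1b was low in cluster 19, at 5.11 to 21.3 CPM from 1 to 5 UMIs per library. In cluster 8 alone it was at 121.3 and 121.0 CPM in saline and at 71.6, 62.3 and 40.3 CPM in FMT mice, still without overlap but from 4 UMIs in FMT mouse 3. In cluster 8, Hspa1a had 105 to 121 CPM in FMT mice 1 and 3 and 62.3 in FMT mouse 2, against 144 and 148 CPM in saline, while Dnajc11 overlapped between the groups, with 0 UMIs in FMT mouse 3. In cluster 19 Dnajb14 was at 32.0 and 56.3 CPM in saline and at 93.6, 121 and 129 CPM in FMT mice. Its saline values there came from 3 and 11 UMIs. In cluster 8 it was between 17.9 and 50.3 CPM and overlapped between the groups. Hspa14 in cluster 8 was at 40.4 and 39.0 CPM in saline and at 22.7, 18.2 and 0 CPM in FMT mice. In cluster 19 it was at 74.8 and 56.3 CPM in saline and at 52.0, 35.5 and 31.2 CPM in FMT mice. These values by cluster were not tested. Without cells rich in proximal tubule markers, 17 of 36 members of the lineage were positive, beside 50.2% of all genes. With all its cells 25 of 40 members were positive, beside 54.2% of all genes. The lineage numbered 766 cells in saline mouse 1 and 66 to 206 in the other mice, and its proximal tubule markers ranged from 623 CPM in saline mouse 1 to 5037 in FMT mouse 1.

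Neutrophils had 17 members past the filter. Dnaja2, a general HSP70 partner, was at 61.7 and 62.1 CPM in saline and at 54.5, 34.1 and 44.5 CPM in FMT mice (log2 -0.66 ± 0.34, edgeR adjusted p = 0.49), from 6 to 35 UMIs. The log2 changes of Dnajc15, Hspd1, Hsp90aa1 and Dnajc14 were -0.77 ± 0.40, -0.57 ± 0.42, -0.47 ± 0.31 and 0.60 ± 0.48. Hspa8 was at 277 and 301 CPM in saline and at 336, 369 and 309 CPM in FMT mice, a difference in raw CPM that was 0.03 ± 0.25 on the log2 scale of the fit.

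The proximal tubule gave the most precise values, from 9400538 to 30059346 UMIs per mouse. Dnajc30, a mitochondrial protein linked to the ATP synthase, was at 64.0 and 61.4 CPM in saline and at 89.8, 78.6 and 88.9 CPM in FMT mice, without overlap (log2 0.47 ± 0.15 SE, edgeR adjusted p = 0.32). It shares exon sequence with Bud23 on the opposite strand. Dnajc4 was at 24.5 and 26.5 CPM in saline and at 33.9, 31.3 and 34.3 CPM in FMT mice (log2 0.40 ± 0.14). Dnajc25 (-0.42 ± 0.16), Dnajc16 (-0.58 ± 0.22) and Dnajc5 (-0.29 ± 0.13), the synaptic vesicle J-domain protein, had values in FMT mice below both saline mice. The inducible and constitutive members listed above stayed within log2 changes of -0.37 and 0.41 here, with Hspe1 at 0.07 ± 0.22, Hspd1 at 0.13 ± 0.17 and Hspa8 at 0.19 ± 0.21.

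In the distal tubule Hspb1 came closest to a call of any member, with the values given above: 22.2 and 20.8 CPM in saline and 54.2, 62.9 and 27.8 CPM in FMT mice, from 18 to 62 UMIs. The log2 change was 1.23 ± 0.30 (SE, edgeR adjusted p = 0.092). It passed without FMT mouse 3 (log2 1.47, edgeR adjusted p = 0.0071), with no low count filter (1.20, edgeR adjusted p = 0.0090) and with the replicate number as a block (1.48, edgeR adjusted p = 0.013), but not with DESeq2 (1.22, DESeq2 adjusted p = 0.69). Over all alternatives its log2 change was between 1.03 and 1.48. In the same cells 9 of 14 tested immediate early genes had an unadjusted p under 0.05, against 4.9% of all genes, and 0 passed after adjustment by edgeR, with a median log2 change of 0.90. Their sums were 3286 and 4091 CPM in saline and 8000, 2444 and 4853 CPM in FMT mice, so FMT mouse 2, the highest for Hspb1, was the lowest for these genes. Dnajc28 (log2 1.03 ± 0.40), Dnajc15 (0.44 ± 0.20), Dnaja3 (0.50 ± 0.22) and Dnajc19 (0.41 ± 0.20) had the next smallest p, and of these Dnajc19 overlapped between groups. Hspa1a and Hspa1b overlapped between groups, with FMT mouse 1 highest (255 and 177 CPM). In intercalated cells, Hspa14 (0.70 ± 0.36), Hspa4 (0.60 ± 0.34), Hspa8 (0.39 ± 0.23), Dnaja3 (0.54 ± 0.36) and Dnajc5 (-0.49 ± 0.37) had the smallest p, and none passed.

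Summed over all cells of a mouse, 0 of 59 members passed with edgeR (0% of all genes called), and DESeq2 called 2, Dnajc30 (log2 0.55, DESeq2 adjusted p = 0.042) and Dnajc12 (0.53, DESeq2 adjusted p = 0.048), among 2.77% of all genes. At an unadjusted p under 0.05 there were 10 members, 8 higher and 2 lower, and 14% of all genes. The makeup of the cells moved with the groups, the proximal tubule being 44.0% and 41.9% of cells in saline and 58.7%, 58.9% and 57.5% in FMT mice, and in such sums fewer cells of a type and less RNA per cell cannot be told apart. Dnajc12, Hspd1 and Hspe1, which were high in the proximal tubule, had changes of 0.52, 0.40 and 0.35 over all cells, and Hspd1 and Hspe1 had 0.13 and 0.07 within the proximal tubule. Hspa1a (-0.93 ± 0.32) and Hspa1b (-0.90 ± 0.30), which were near 0 there, were at lower values over all FMT cells without overlap. For Hspa1a these were 22.9 and 37.4 CPM in saline and 20.6, 10.4 and 13.3 CPM in FMT mice. Monocytes and macrophages, which were high in both genes, were 15.3% and 4.46% of cells in saline and 3.44%, 3.23% and 2.36% in FMT mice. The distal tubule, also high in both, was 2.95% and 8.57% in saline and 3.79%, 2.67% and 4.33% in FMT mice. The part of these shares in the changes was not tested.

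Whether the change with FMT differed between lineages was tested as an interaction of lineage and group with the mouse as a block. Of 50 members 0 passed with edgeR, while 0.23% of all 10417 genes did. At an unadjusted p under 0.05 there were 4 members and 8.96% of all genes. The smallest were those of Hspa1a (edgeR adjusted p = 0.35) and Hspa1b (edgeR adjusted p = 0.39), and both passed with no low count filter (edgeR adjusted p = 2.1e-08 and 3.5e-08). Of Hspa1a the log2 changes were 1.73 in B cells, 0.35 in intercalated cells, 0.27 in the distal tubule, -0.37 in the proximal tubule, -0.59 in T cells and -0.71 in monocytes and macrophages, and without FMT mouse 1 that of B cells was 0.22. In T cells it was 0.56 without saline mouse 2, in the proximal tubule 0.41 without saline mouse 1, and in the distal tubule -0.50 and intercalated cells -0.45 without FMT mouse 1.

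Differences between single mice ran across lineages. Hspa8 was lowest in saline mouse 1 in all 7 lineages, at 661, 930, 938, 277, 1115, 497 and 713 CPM in B cells, T cells, monocytes and macrophages, neutrophils, proximal tubule, distal tubule and intercalated cells. In the other saline mouse the values were 1049, 1370, 1505, 301, 1570, 896 and 1021 CPM, which overlapped with those of the FMT mice in 6 of the lineages, neutrophils being the exception. Of all 10417 genes 0.269% were lowest in saline mouse 1 in all 7 lineages. FMT mouse 3 was highest for Dnaja2 in 6 lineages, as it was for 0.24% of genes in 6 or 7 lineages. Saline mouse 2 was lowest for Dnajc21, a ribosome biogenesis J-domain gene, in 6, as it was for 0.336% of genes in 6 or 7. No other tested member had the same mouse lowest or highest in 6 or more lineages. Of the 59 other chaperone and heat shock genes, 0 passed between saline and FMT mice in any lineage or over all cells with edgeR. At an unadjusted edgeR p under 0.05 there were 3 of 52 tested in B cells and 3 of 54 in T cells. Monocytes and macrophages had 3 of 50, neutrophils 2 of 28 and the proximal tubule 5 of 56. The distal tubule had 3 of 56, intercalated cells 2 of 46 and all cells 6 of 58. Among all genes the shares in this order were 8.3%, 5.69%, 4.02%, 10.9%, 10.5%, 4.9%, 2.47% and 14%.

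**Figure D5:**
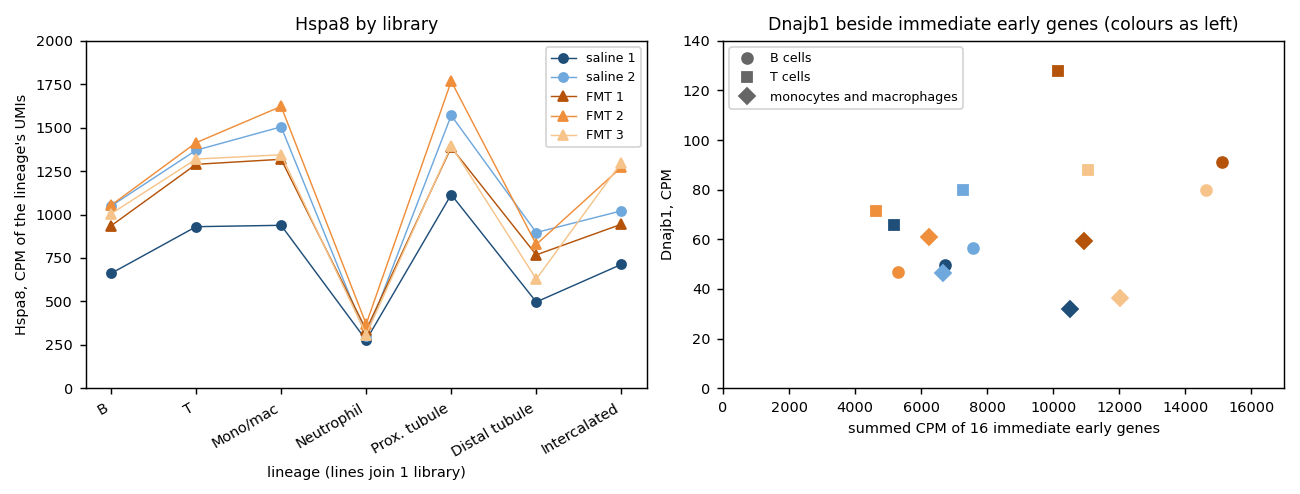
Left, Hspa8 in CPM by lineage, with lines joining the values of 1 library; saline mouse 1 is lowest in all 7 lineages. Right, Dnajb1 in CPM against the summed CPM of 16 immediate early genes in B cells, T cells and monocytes and macrophages, 1 point per library, where FMT mice 1 and 3 are high on both axes in B and T cells.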

How the data were processed

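The deposited files hold raw UMI counts per gene and barcode. Per the submitters' processing notes, Cell Ranger 2.1.1 and mm10 are named, whereas per the file headers the version was 4.0.0. Per the labels' protocols, kits for bulk RNA were used, which does not match droplet libraries. Gene coordinates are from GENCODE M21.

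Of 26237 barcodes, 22591 had 200 genes or more and less than 50% of UMIs from mitochondrial genes. Scrublet in scanpy 1.11.5 removed 883 likely doublets, at 0.8% per 1000 cells. From 2000 variable genes without members, 28 clusters were found by the Leiden method (leidenalg 0.10.2) at resolution 1, using 30 principal components and 15 neighbours. A cluster joined a lineage at 25% or more of the highest cluster's gate gene level, unless its 10 leading genes held more markers of another class; 17 clusters with 20154 cells qualified. This rule was set after clusters were seen, and names may differ from the authors'.

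UMIs were summed per library and lineage and tested with edgeR 4.0.16 (R 4.3.3, TMM, filterByExpr, quasi-likelihood F test, Benjamini-Hochberg over all genes tested at 0.05). Lineage and interaction tests had the mouse as a block. DESeq2 1.42.0 was an alternative. Scripts were tested on simulated data. CPM is UMIs per 1e6 UMIs of the lineage and library. Python 3.11.15 was used.

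The genes and lists were chosen with earlier results of these data known. Named genes are the 12 most abundant, the 3 members per lineage with the largest rise among those called and at 20 CPM or more, fixed inducible and constitutive members and the 5 smallest p per comparison; others were chosen after their values were seen. The labels do not say that the libraries came from separate preparations, so p-values cover only the spread between the 5 samples.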

Additional observations from a re-analysis of the deposited data

Results flagged for a closer look

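Clusters outside the 7 lineages held 5 signals of members above the level in every lineage, in data that no test between lineages used. Hspb1 had a mean of 459.2 CPM in 185 cells led by S100a6, Sprr1a, Upk3a and Krt7, at 335 to 595 CPM in all 5 libraries and from 1147 UMIs, against 37.6 CPM in the distal tubule, the highest lineage. In 239 cells led by Kap, Cryab, Plvap and Aqp2, Hspb1 had a mean of 332.5 CPM, with 692 CPM in saline mouse 1 and 176 to 367 in the other mice. Hspa2, an HSP70 gene best known from the testis, had a mean of 51.19 CPM in the cells led by Upk3a, at 38.8 to 72.6 CPM per library, against 8.76 CPM in the highest lineage. Hspa14 had a mean of 132.2 CPM in 72 cells led by Gzma, Hist1h2ap and Prtn3, of which FMT mouse 3 gave 5 cells, against 57.0 CPM in T cells. Dnajc7 had a mean of 1236 CPM in 50 cells led by Tyrobp, Siglech, Bst2 and Irf8, at 715 to 2020 CPM per library from 301 UMIs in all, against 233 CPM in B cells. These clusters were picked for these levels, with 5 to 64 cells per library, and were not tested.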

How the results depend on the processing

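Between saline and FMT mice, 0 members were called in every lineage and over all cells by the main test. This count became 1 with no low count filter in T cells (Hspa1b), monocytes and macrophages (Hspa1b) and the distal tubule (Hspb1), 1 with the replicate block in the distal tubule (Hspb1) and 2 with DESeq2 over all cells (Dnajc30, Dnajc12). With each replicate left out in turn it ranged from 0 to 1 in the distal tubule, where leaving out FMT replicate 3 gave Hspb1, and was 0 elsewhere. The interaction count was 2 with no low count filter (Hspa1a, Hspa1b) and 0 otherwise. The cause of these changes was not tested. Same-numbered saline and FMT mice deviated from their group means with correlations of -0.35 to 0.13. With 2 saline mice these deviations mirror each other, so the correlations cannot show whether same-numbered mice share more than a number. The replicate block changed no other call. Between lineages, 141 of 209 calls were tested and held in all 8 alternatives run, and 0 changed sign. Left out in turn, the replicates gave 12 to 17 calls in B cells (17 with all) and 29 to 35 in T cells (36 with all). Of calls that were tested, 28 were lost without saline replicate 1 and 15 with lineages set by each cell's own gate gene UMIs, where 18 more were not tested. Leaving out cells with proximal tubule UMIs was an alternative chosen after seeing the data. Members with few UMIs, such as Hspb6, Hspb7 and those of neutrophils, are limited by depth.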
